A study of Mus musculus with 18 samples.

Results

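The 10 genes described here mark macrophages and other leukocytes, and were followed through DNA methylation peak lists from infarcted and sham-operated mouse hearts (MI, myocardial infarction). The genes were Runx1, Ikzf1, Spi1, Csf1r, Mertk, Adgre1, Itgam, Itgb2, Ptprc and Cd68, 10 of the 49939 genes (21883 of them protein-coding) in the RefSeq gene table of GRCm38.p6. They were chosen by name, with earlier results of these data known. Each was taken as its span in that table plus 2000 bases on each side (its window), 846817 bases in all. MeDIP-seq pulls down sheared DNA with an antibody to 5-methylcytosine and sequences it, so a peak marks a stretch rich in methylated fragments and gives no methylated percentage at a cytosine. The 18 mice were 12-week-old males of the strain given as C57BL/6JR, with 3 mice and 3 libraries per group. Sham mice had the operation and the suture without the tie. The 5 MI groups had the left anterior descending coronary artery tied and were taken 10 min, then 1 h, 6 h, 24 h or 72 h later, and all groups had pentobarbital anaesthesia. The series title names the course of methylation as the infarct progresses as its interest.

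Per the labels the source is myocardial tissue with cardiomyocytes as its cell type, but they describe no step that separates cells, and these lists hold no expression by which the cell type could be checked. Which zone of the heart was sampled, relative to the infarct, is not given in the sources used here. In bulk tissue, a change in the mix of cells and a change of methylation within cells cannot be told apart. The lists held from 34255 peaks (MI 6 h replicate 3) to 60653 peaks (MI 72 h replicate 2), with a mean of 52307 ± 6008 (SD, n = 6) over MI 24 h and 72 h and 45701 ± 6823 (SD, n = 12) over the other libraries. By group the mean was 51287 in sham, between 42620 and 44457 for MI 10 min, 1 h and 6 h, 48529 for MI 24 h and 56084 for MI 72 h. The part of list length in the differences below was not tested except by keeping equal numbers of peaks.

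The 10 genes have been studied mainly in blood. Spi1 encodes PU.1, a transcription factor needed to make myeloid cells, Runx1 is needed for the first blood stem cells, and Ikzf1 encodes Ikaros, which directs lymphoid development. Csf1r is the receptor through which macrophages receive their survival signal, Mertk lets them engulf dying cells, and Adgre1 (F4/80) marks mature macrophages. Itgam and Itgb2 are the chains of the integrin Mac-1, Ptprc is the pan-leukocyte phosphatase CD45, and Cd68 is a lysosomal glycoprotein. Genes of this kind are commonly unmethylated over their regulatory DNA in the blood cells that use them and methylated in cells of other tissues, and the healing infarct is entered by neutrophils first and then by monocytes and macrophages.

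Peaks were found at 9 of the 10 genes, all but Cd68, against 75.5% of protein-coding genes. The share was 81.3% for the 18505 protein-coding genes with windows between the shortest and longest of the 10 (5958 to 228609 bases). That set was bounded by length but not matched to the lengths of the 10. The peaks of all lists, merged where they overlapped, formed 62 regions at these genes, of 152196 in the genome. Of these, 58 (93.5%) were inside a gene, 1 crossed the start of Itgam and 3 lay in a flank, where gene spans made up 95.3% of the windows. Whether they cover exons or introns was not analysed here. A peak was present in all 18 libraries in 2 regions (3.23%, against 5.09% of all regions), and 23 regions (37.1%, against 29.2%) were found in 1 library only. The median region was found in 3 libraries, as in the whole genome. Scores, the authors' own value for the strength of each peak with a lowest value of 50, had a median of 67.2 at the 10 genes and 72.1 over all peaks.

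**Figure D1:**
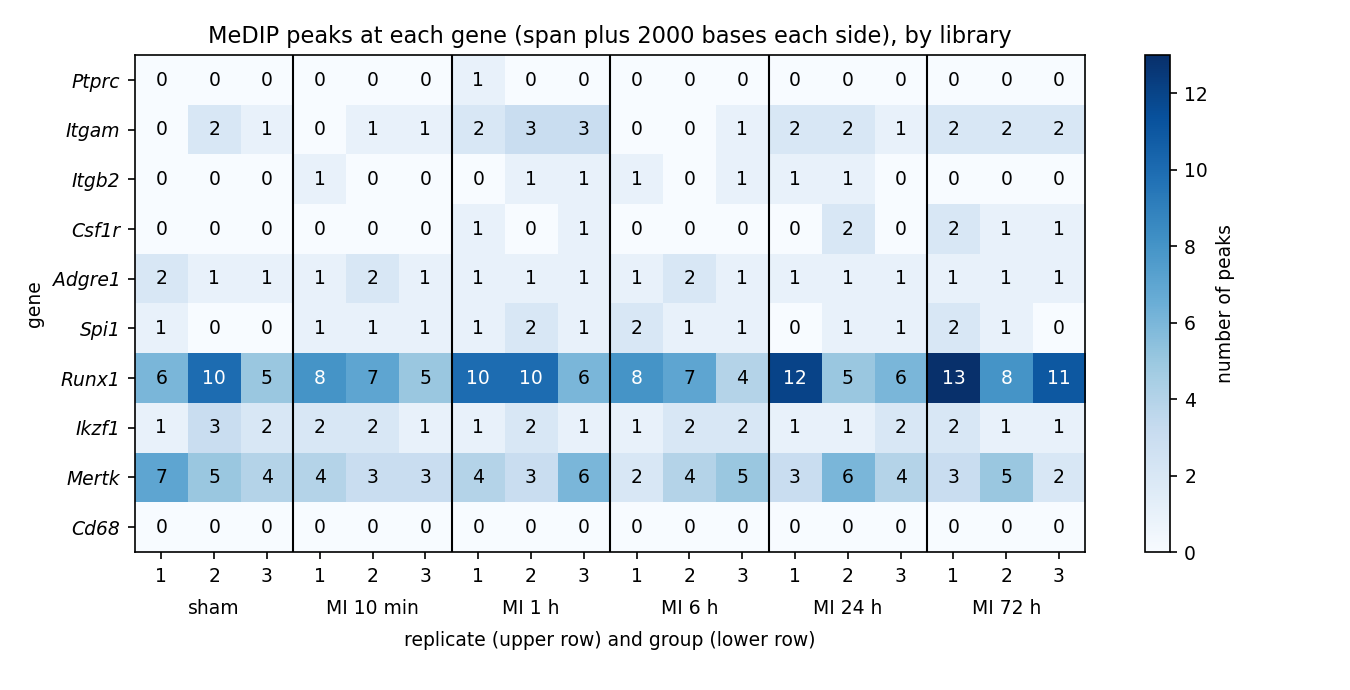
Number of peaks at each of the 10 genes (rows) in each of the 18 libraries (columns, by group and replicate). Runx1, Mertk, Ikzf1 and Adgre1 have a peak in all 18 libraries, Ptprc in 1 library and Cd68 in none.

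Each gene was compared between the 6 libraries of MI 24 h and 72 h, called late here, and the 12 libraries of sham, 10 min, 1 h and 6 h, called earlier. The measure was the percent of the gene's window under peaks, and the test was an exact two-sided permutation test over libraries with Benjamini-Hochberg adjustment over the 31701 genes with any peak. No gene of the 31701 passed at an adjusted p of 0.05 (0%), so none of the 9 tested members did. At an unadjusted p below 0.05, 1 of 9 members was higher late (Csf1r), where 5.13% of all genes were, and 0 of 9 was lower, where 1.24% of all genes were. The mean was higher late in 3 members and lower in 6, with a median difference of -0.101 percentage points, against 0.222 points and 58.3% higher over all genes tested. Presence of a peak in each region was compared between the same libraries by Fisher's exact test. No region of 152196 passed after adjustment (0%). At an unadjusted p below 0.05 none of the 62 member regions was more or less often present late, where 1.65% and 0.283% of all regions were. With 6 libraries against 12, a region found in 1 or 2 libraries, or in 16 or more, cannot reach that p. For 2 libraries, both late, Fisher's exact p is 0.0980. The 23 member regions found in 1 library, among others, therefore could not be called. Of the 62 regions, 27 (43.5%) were present more often late, 28 (45.2%) less often and 7 equally often. Over all regions the shares were 47.9%, 38.8% and 13.3% in the same order.

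Among the transcription factors, Runx1 carried by far the most peaks of the 10 genes, 141 over all libraries and 4 to 13 in each. Runx1 (NCBI Gene 12394) lies on the minus strand of chromosome 16 from 92601466 to 92826074 (mm10) and spans 224609 bases, the longest of the 10. Its 26 regions were spread along the gene, and 8 of them were found in 1 library only. The strongest, chr16:92654767-92656826, lay 75.8% of the way along the gene and had a peak in 18 of 18 libraries. Its scores were 83.6, 153 and 107 in sham, 137, 87.7 and 109 after 10 min, 113, 122 and 149 after 1 h, 123, 134 and 92.1 after 6 h, 84.4, 142 and 109 after 24 h, and 121, 117 and 107 after 72 h. Each MI group overlapped sham. A second region at chr16:92686691-92689504 had a peak in 17 libraries, all but replicate 3 of MI 6 h, with a median score of 84.1. It joins neighbouring stretches: no base lay under the peaks of all 17 libraries, so its scores are not compared between groups.

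The percent of the Runx1 window under peaks was 2.37%, 4.63% and 3.39% in sham, 4.07%, 4.14% and 2.09% after 10 min, 4.55%, 4.71% and 3.06% after 1 h, 3.70%, 3.37% and 2.49% after 6 h, 5.05%, 3.05% and 2.94% after 24 h, and 5.54%, 4.50% and 5.80% after 72 h. The 72 h libraries were among the highest, but the lowest of them was below the highest sham library. The late mean was 4.48% ± 1.23 (SD, n = 6) and the earlier mean 3.55% ± 0.909 (SD, n = 12), a difference of 0.935 points (exact permutation p = 0.0862, adjusted p = 0.807). With the 72 h libraries alone as the late group the difference was 1.74 points (exact permutation p = 0.0110), a comparison in which 7.01% of all genes were higher and 0.753% lower at an unadjusted p below 0.05. Runx1 and Csf1r were both higher there. In the same comparison of regions, 2 of the 55 member regions with a peak outside MI 24 h were more often present in MI 72 h at an unadjusted p below 0.05 and 0 less often (2.29% and 0.178% of all regions): chr16:92645068-92647159 in Runx1, with 3 of 3 against 3 of 12, and chr18:61109339-61110602 in Csf1r, with 2 of 3 against 0 of 12. At the level of regions, chr16:92772064-92773681 had a peak in 5 of 6 late and 6 of 12 earlier libraries (Fisher's exact p = 0.316), and chr16:92788386-92789081 in 2 of 6 and 0 of 12 (Fisher's exact p = 0.0980).

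**Figure D2:**
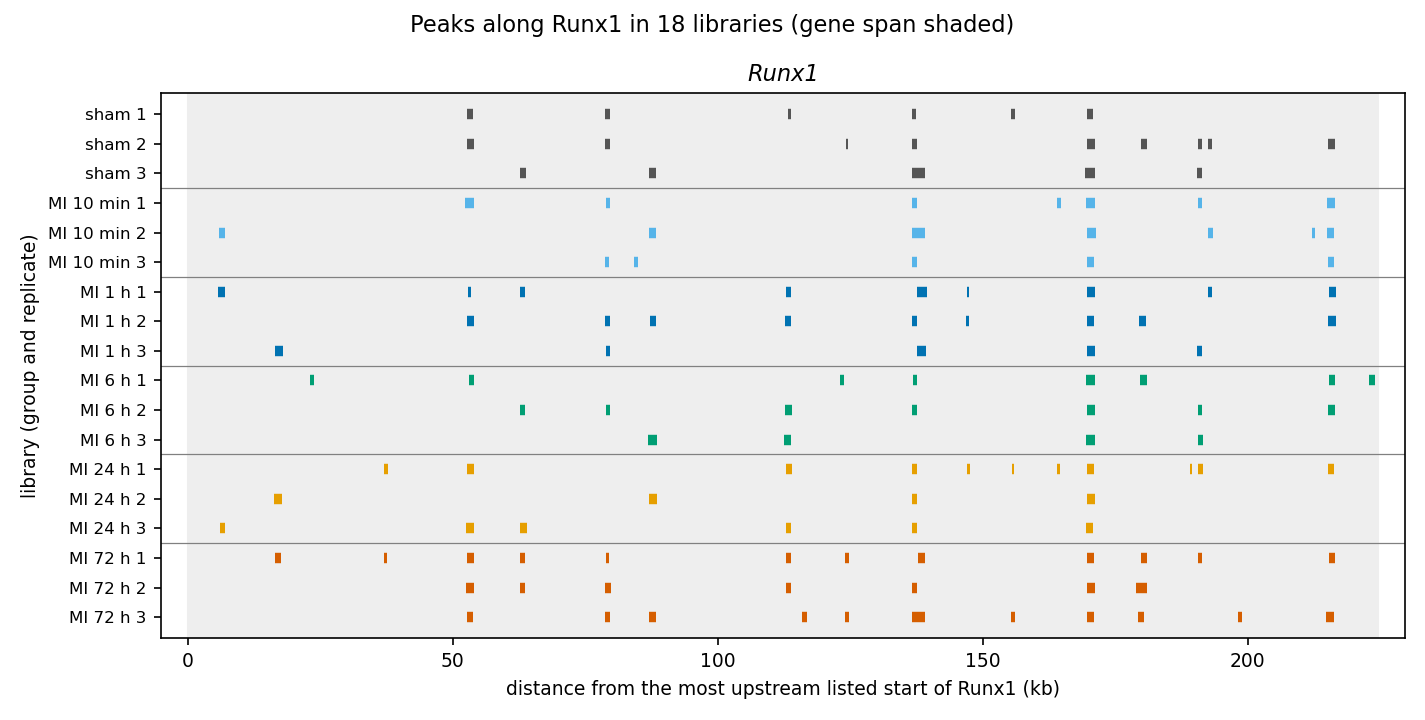
Peaks along Runx1 in each library, drawn as distance from the listed start of transcription at the upstream end of the gene, with libraries in rows by group. The regions present in 18 and 17 libraries stand out as columns, and most other peaks appear in few libraries.

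Runx1 has listed start sites at an upstream and a downstream promoter, which differ in CpG content, and neither had a peak in any of the 18 libraries. The sequences below run from 250 bases before to 50 bases after each start, are taken from RefSeq (GRCm38.p6) and are shown because they place the absence of peaks beside the CpG content. Capitals mark CpG, the dinucleotide at which mammalian DNA is mainly methylated. The upstream window, chr16:92826025-92826324 on the minus strand, holds 2 CpG, and the downstream window, chr16:92697280-92697579 on the same strand, holds 35.
Runx1 upstream promoter: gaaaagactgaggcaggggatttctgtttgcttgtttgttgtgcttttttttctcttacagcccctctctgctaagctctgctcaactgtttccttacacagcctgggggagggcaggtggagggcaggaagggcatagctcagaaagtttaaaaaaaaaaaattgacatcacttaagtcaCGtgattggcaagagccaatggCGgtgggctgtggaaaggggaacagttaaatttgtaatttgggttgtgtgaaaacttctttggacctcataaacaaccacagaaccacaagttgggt
Runx1 downstream promoter: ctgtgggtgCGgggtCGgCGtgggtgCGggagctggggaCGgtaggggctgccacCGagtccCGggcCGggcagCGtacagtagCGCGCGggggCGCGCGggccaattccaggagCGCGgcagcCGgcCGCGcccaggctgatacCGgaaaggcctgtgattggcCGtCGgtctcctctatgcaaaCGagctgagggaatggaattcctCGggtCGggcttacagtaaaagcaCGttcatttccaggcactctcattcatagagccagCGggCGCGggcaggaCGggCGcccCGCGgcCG

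Ikzf1 (NCBI Gene 22778; chromosome 11 from 11684962 to 11772930, plus strand) had 4 regions and a peak in every library. The region chr11:11768751-11770336, 96.1% of the way along the gene, was the other one found in 18 of 18 libraries. Its scores were 165, 197 and 79.1 in sham, 103, 65.7 and 121 after 10 min, 82.8, 71.4 and 94.0 after 1 h, 98.1, 121 and 85.5 after 6 h, 134, 97.7 and 70.6 after 24 h, and 248, 220 and 80.6 after 72 h. These include the highest score at any of the 10 genes (248). The sham and 72 h libraries overlap through replicate 3 of MI 72 h (80.6), which lay within the sham range. A weaker region in the middle of the gene, chr11:11727052-11728597, had a peak in 7 of 12 earlier and 1 of 6 late libraries, a difference of -41.7 points that did not pass the test (Fisher's exact p = 0.152). The percent of the Ikzf1 window under peaks was 1.30% ± 0.559 (SD, n = 6) late and 1.66% ± 0.674 (SD, n = 12) earlier (exact permutation p = 0.272, adjusted p = 0.932).

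The first listed promoter of Ikzf1, chr11:11685675-11685974 on the plus strand, is a dense CpG island with 52 CpG and 81.3% G and C. It had no peak in any library, and neither did the second listed promoter with 2 CpG.
Ikzf1 promoter: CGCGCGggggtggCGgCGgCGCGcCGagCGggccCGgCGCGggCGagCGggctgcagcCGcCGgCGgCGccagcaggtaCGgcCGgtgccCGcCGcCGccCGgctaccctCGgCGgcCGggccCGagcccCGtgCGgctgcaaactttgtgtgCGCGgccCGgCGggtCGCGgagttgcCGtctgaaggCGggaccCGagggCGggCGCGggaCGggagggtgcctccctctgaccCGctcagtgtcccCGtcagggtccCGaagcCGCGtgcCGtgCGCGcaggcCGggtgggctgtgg

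Spi1 (NCBI Gene 20375; chromosome 2 from 91082374 to 91115759) held the 1 member region that was absent from sham and frequent after MI. At chr2:91095376-91096792, 41.1% of the way from the lower end of the gene, 0 of 3 sham libraries had a peak. All 3 libraries had one after 10 min (scores 52.6, 57.6 and 73.3), after 1 h (69.6, 50.8 and 52.6) and after 6 h (52.4, 94.0 and 81.5). At 24 h 2 of 3 had one (61.9 and 62.3), and at 72 h 2 of 3 (74.4 and 66.6). The peaks were weak, with a median score of 62.3 that stood at the 35.0th percentile of its list. It was the 1 member region of 62 present in 3 of 3 libraries and absent from 3 of 3 sham libraries at the times of 10 min, 1 h and 6 h. Regions gained in that way made up 0.216%, 0.225% and 0.201% of all regions at these times. The 3 comparisons share the same sham libraries. None of the 62 was gained at 24 h or 72 h, where 0.393% and 0.719% of all regions were. None was lost at any time, where 0.624% (10 min), 0.553% (1 h), 0.706% (6 h), 0.524% (24 h) and 0.397% (72 h) of all regions were.

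Over all MI libraries the Spi1 region was present in 13 of 15, against 0 of 3 sham libraries (Fisher's exact p = 0.0123, Benjamini-Hochberg adjusted p = 1), a comparison made after its values by group had been seen. It was 1 of 62 member regions more often present in MI at an unadjusted p below 0.05, where 0.114% of all regions were, and 0 of 62 was less often present, where 0.744% were; no region passed after adjustment (0%). With the 34255 highest-scoring peaks of every list, the difference was 46.7 points instead of 86.7 (Fisher's exact p = 0.245), and no library had a peak of score 100 or more there. Over the whole Spi1 window the percent under peaks was 2.48% ± 2.45 (SD, n = 6) late and 3.09% ± 1.69 (SD, n = 12) earlier (exact permutation p = 0.533). The libraries behind these means had 3.96%, 0% and 0% in sham, 3.33%, 2.86% and 3.09% after 10 min, 2.73%, 4.98% and 3.05% after 1 h, 5.79%, 3.46% and 3.79% after 6 h, 0%, 2.36% and 3.12% after 24 h, and 6.62%, 2.80% and 0% after 72 h. Replicate 1 of sham put the sham range across that of every MI group. The 1 sham library with a peak had it near the upper end of the gene, at chr2:91112938-91114460.

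**Figure D3:**
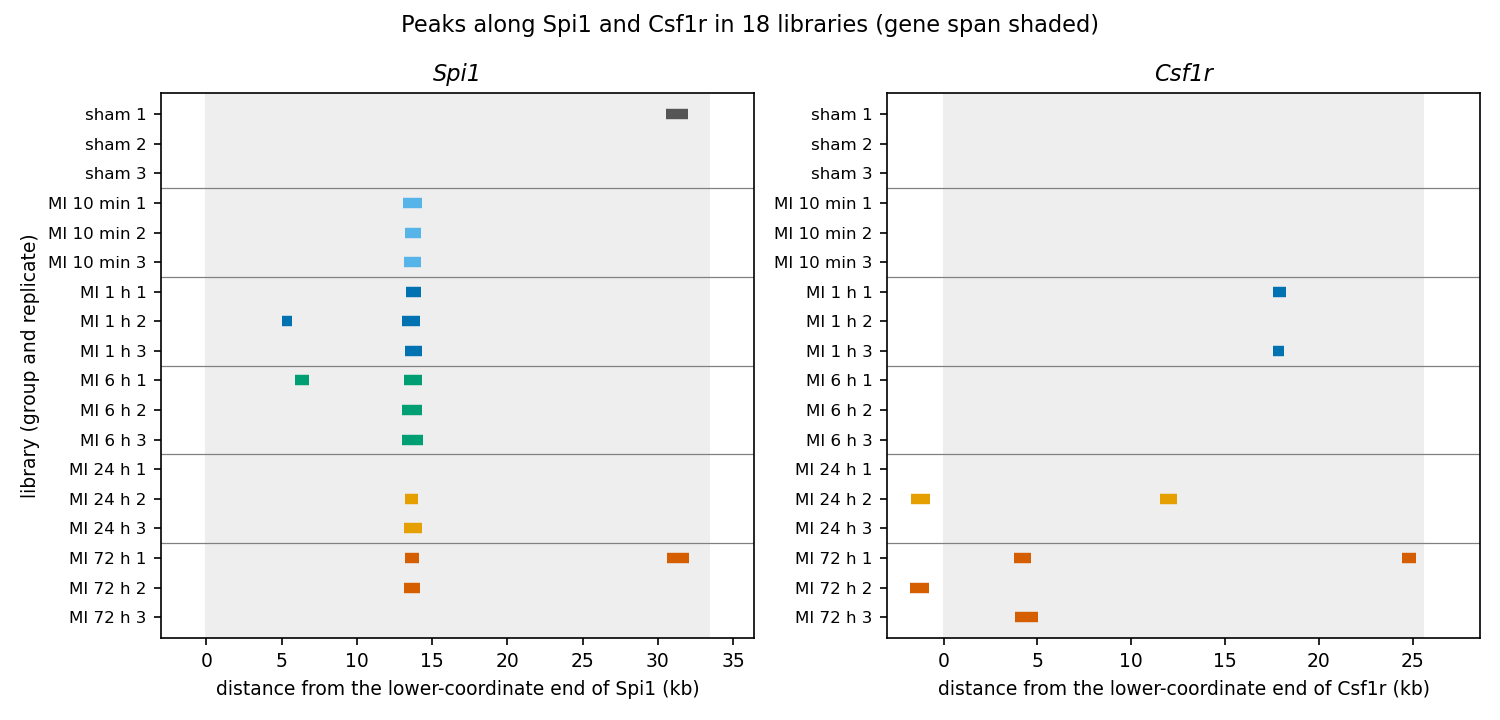
Peaks at Spi1 and Csf1r in each library, with distance from the lower end of the gene on the x axis and libraries in rows by group. The Spi1 region is empty in the 3 sham libraries and present in 13 of 15 MI libraries. Csf1r has no peak in sham, at 10 min or at 6 h, and a peak in all 3 libraries at 72 h.

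Among the surface receptors, Csf1r (NCBI Gene 12978; chromosome 18 from 61105572 to 61131139) was the member with the largest difference between late and earlier libraries. The percent of its window under peaks was 0% in all 3 sham libraries, in all 3 at 10 min and in all 3 at 6 h. It was 2.35%, 0% and 2.02% after 1 h, 0%, 6.65% and 0% after 24 h, and 5.61%, 3.34% and 4.19% after 72 h. Late libraries had a mean of 3.30% ± 2.80 (SD, n = 6) and earlier libraries 0.364% ± 0.853 (SD, n = 12), a difference of 2.94 points (exact permutation p = 0.00619, adjusted p = 0.543). A peak was present in 4 of 6 late and 2 of 12 earlier libraries, and every 72 h library was above every sham library. Genes with such separate ranges, higher at 72 h than in sham, made up 3.96% of all genes, and Csf1r was 1 of 9 members among them; 2.65% of all genes and 0 of 9 members were lower.

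The Csf1r peaks did not fall on 1 region. Replicates 1 and 3 of MI 72 h shared chr18:61109339-61110602 (scores 50.7 and 52.2), and replicate 2 of MI 72 h shared chr18:61103808-61104857, in the flank, with replicate 2 of MI 24 h (55.8 and 76.8). Each of these regions was present in 2 of 6 late and 0 of 12 earlier libraries (Fisher's exact p = 0.0980 for each). The remaining regions were 1 each in MI 24 h replicate 2 (score 69.9, overlapping Mir6983) and MI 72 h replicate 1 (54.6), and 1 in replicates 1 and 3 of MI 1 h (52.7 and 57.8, overlapping Gm52352). These scores ran from 50.7 to 76.8, where the median of all peaks was 72.1. When every list was held to its 34255 highest-scoring peaks, the Csf1r difference was 1.11 points (exact permutation p = 0.333). In that setting 2.42% of all genes were higher late and 2.23% lower, in place of 5.13% and 1.24%, and 0 of the members was on either side.

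Mertk (NCBI Gene 17289; chromosome 2 from 128698915 to 128803162, plus strand) had 73 peaks in 11 regions and a peak in every library. Its 3 recurrent regions stood together at the downstream end of the gene. They were chr2:128791733-128793468 (15 libraries), chr2:128800603-128801765 (14 libraries) and, beyond the end of the gene, chr2:128804298-128805762 (16 libraries). The first of them had a peak in 6 of 6 late and 9 of 12 earlier libraries (Fisher's exact p = 0.515). Near the other end, chr2:128699875-128701322, whose middle lay 1684 bases from the start, had a peak in 6 of 12 earlier and 1 of 6 late libraries (Fisher's exact p = 0.316). A region further in, chr2:128725300-128726772, had one in 7 of 12 and 2 of 6 (Fisher's exact p = 0.620). The percent of the Mertk window under peaks was 5.67%, 3.42% and 3.62% in sham and 3.05%, 3.05% and 2.14% at 10 min. All 3 values at 10 min were below all 3 in sham, as for 3.73% of all genes (1.89% were higher), and Mertk was the 1 of 9 members in that position. The later groups held values from 1.87% to 5.41% and overlapped sham, and late (3.09% ± 1.08, SD, n = 6) and earlier libraries (3.37% ± 1.27, SD, n = 12) differed by -0.281 points (exact permutation p = 0.648).

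No member stood clear of sham at the other times, where the shares of all genes were 1.4% higher and 4.89% lower for MI 1 h, 2.03% and 3.73% for MI 6 h, and 1.98% and 3.8% for MI 24 h. With 3 libraries against 3, an exact permutation test cannot give a p below 0.1, so these counts carry no p.

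Adgre1 (NCBI Gene 13733; chromosome 17 from 57358581 to 57483529) had the smallest SD relative to its mean of the 9 genes with a peak. Its window was under peaks by 0.942% ± 0.252 (SD, n = 18), from 0.666% to 1.45%, and late and earlier libraries differed by -0.101 points (exact permutation p = 0.435). The main region, chr17:57394413-57395937, was present in 16 libraries with scores from 55.4 to 98.5 (median 76.0). The libraries without it were replicate 3 of MI 6 h, which had the shortest list, and replicate 1 of MI 72 h. Both had a peak at chr17:57372633-57374828 instead.

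**Figure D4:**
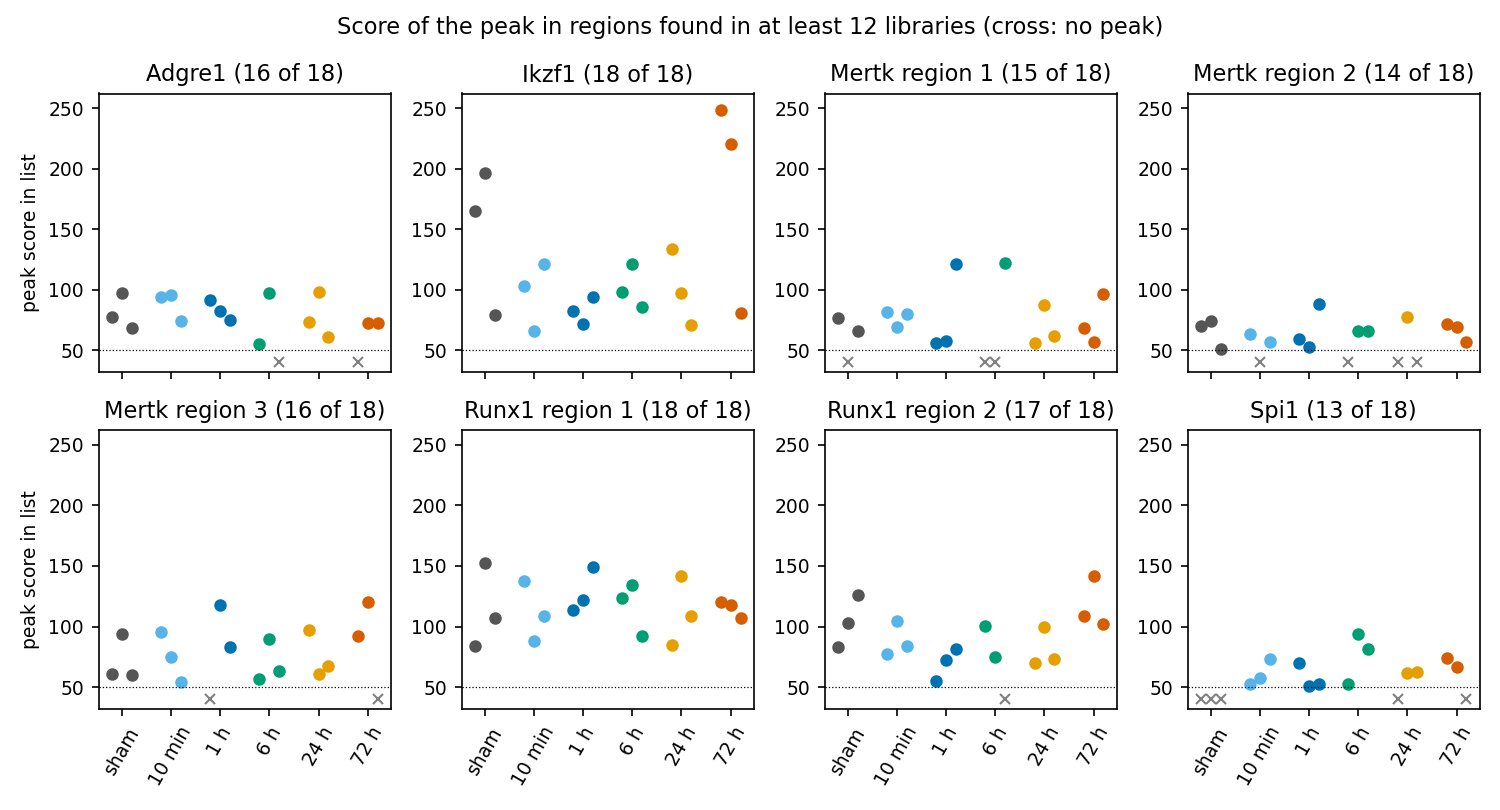
Score of the peak in each library at the 8 member regions found in at least 12 of 18 libraries, by group, with 1 point per library that has a peak. The Spi1 region has no sham point, and at the first Runx1 region each MI group overlaps sham. The second Runx1 region joins peaks over neighbouring stretches, so its points are not all for the same bases. A cross marks a library with no peak, and the dotted line the lowest score of 50.

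Of the integrin chains, Itgam (CD11b; NCBI Gene 16409; chromosome 7 from 128062640 to 128118491, plus strand) was the only one of the 6 genes with a listed promoter to have a peak over it. The region chr7:128061376-128062818 crossed the start of the gene, overlapped the predicted gene Gm22809, and was present in 11 libraries. In sham 1 of 3 libraries had it (score 105), after 10 min 1 of 3 (68.3), after 1 h 3 of 3 (51.8, 76.7 and 66.2), after 6 h 1 of 3 (71.5), after 24 h 2 of 3 (58.6 and 88.7) and after 72 h 3 of 3 (65.5, 92.6 and 100.4). That is 5 of 6 late and 6 of 12 earlier libraries (Fisher's exact p = 0.316). The other 4 regions lay inside the gene and were found in 1 to 6 libraries. The percent of the Itgam window under peaks was 0%, 3.91% and 0.897% in sham, 0%, 2.03% and 1.74% after 10 min, 3.73%, 5.69% and 4.62% after 1 h, 0%, 0% and 1.75% after 6 h, 3.08%, 2.38% and 0.967% after 24 h, and 3.30%, 3.29% and 2.58% after 72 h. The highest sham library lay within the 1 h range and above all 3 at 72 h. Late libraries had 2.60% ± 0.885 (SD, n = 6) and earlier libraries 2.03% ± 2.01 (SD, n = 12), a difference of 0.571 points (exact permutation p = 0.518, adjusted p = 0.975).

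The Itgam promoter window, chr7:128062390-128062689 on the plus strand, has 6 CpG (in capitals) and 50.3% G and C, and is shown as the counterpart of the windows without a peak.
Itgam promoter: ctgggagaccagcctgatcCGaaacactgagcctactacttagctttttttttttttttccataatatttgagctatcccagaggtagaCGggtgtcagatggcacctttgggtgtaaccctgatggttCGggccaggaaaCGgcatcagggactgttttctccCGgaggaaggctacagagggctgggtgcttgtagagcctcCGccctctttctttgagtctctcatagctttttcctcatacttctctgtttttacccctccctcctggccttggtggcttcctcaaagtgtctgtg

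Over all 32851 RefSeq promoter windows of this length, 8.93% touched a peak in any library. The share was 8.19% for windows with 0 to 4 CpG, 20.2% for 5 to 9, 10.3% for 10 to 19 and 1.24% for 20 or more. A peak in at least 11 libraries, as at Itgam, was found in 3.65% of windows with 5 to 9 CpG. Of the 9 windows available for 6 of the 10 genes, the Itgam window alone had a peak. Those of Mertk (14 CpG), Ikzf1, Runx1, Ptprc (4 and 2 CpG) and Cd68 (4 CpG) had none in 18 libraries. The core letters bound by PU.1, GAGGAA on either strand, occurred in 4 of the 9 windows and in 28.3% of all windows, with 3 matches in the Itgam window. The core letters bound by RUNX factors, TGTGGT on either strand, occurred in 1 of the 9 (2 matches, at the upstream Runx1 promoter) and in 16.8% of all windows. No member window held both.

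Itgb2 (CD18; NCBI Gene 16414; chromosome 10 from 77530329 to 77565708) had a peak in 7 libraries, 0 of 3 in sham and 0 of 3 at 72 h. Between these times its main region, chr10:77534417-77535884, was present in replicates 2 and 3 of MI 1 h (scores 61.5 and 65.9), 1 and 3 of MI 6 h (55.5 and 69.4) and 2 of MI 24 h (65.2). The late mean was 0.697% ± 1.32 (SD, n = 6) and the earlier mean 1.23% ± 1.58 (SD, n = 12), which did not differ by the test (exact permutation p = 0.511). Ptprc (CD45; NCBI Gene 19264; chromosome 1 from 138062859 to 138175756, minus strand) is 112898 bases long and had 1 peak in all 18 libraries together, at chr1:138136145-138136993 in replicate 1 of MI 1 h (score 56.4). Adgre1, of similar length at 124949 bases, had 21. Cd68 (NCBI Gene 12514; chromosome 11 from 69664213 to 69666170, minus strand), at 1958 bases the shortest, had no peak in any library and could not be tested.

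Summed over the 10 windows, the percent under peaks was 1.99% ± 0.318 in the sham group, 1.87% ± 0.484 after 10 min, 2.46% ± 0.102 after 1 h, 1.98% ± 0.211 after 6 h, 2.07% ± 0.237 after 24 h and 2.57% ± 0.150 after 72 h (SD over 3 libraries). Over all protein-coding genes the same measure was 2.40% ± 0.380, 2.12% ± 0.301, 2.003% ± 0.0909, 2.09% ± 0.352, 2.19% ± 0.233 and 2.59% ± 0.237 in the same order. The ratio of the first to the second was 0.819 to 0.843 in the 3 sham libraries, 0.679 to 1.16 for MI 10 min, 1.18 to 1.32 for MI 1 h, 0.759 to 1.25 for MI 6 h, 0.841 to 1.098 for MI 24 h and 0.869 to 1.08 for MI 72 h. The ranges of the 10 min, 6 h and 24 h libraries overlapped that of sham, and those of 1 h and 72 h lay above it. How often other gene sets show such separate ranges was not tested. The sum weights each gene by its length, and the Runx1 window made up 228609 of the 846817 bases. From sham to 72 h the Runx1 mean went from 3.46% to 5.28%. The means of Itgam, Csf1r and Spi1 were also higher at 72 h, and those of Mertk, Ikzf1 and Adgre1 were lower. Peaks were present at 5 of the 10 genes in every sham library, at 6 in every library of MI 10 min, at 7 or 8 for MI 1 h, at 5 to 7 for MI 6 h, at 6 to 8 for MI 24 h and at 6 or 7 for MI 72 h. Protein-coding genes with windows within the length range of the 10, not matched further in length, were counted beside them. A mean of 53.1% of these had a peak in sham, 48.6% for MI 10 min and 48.6% for MI 1 h. The mean was 47.2% for MI 6 h, 51.5% for MI 24 h and 57.2% for MI 72 h.

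**Figure D5:**
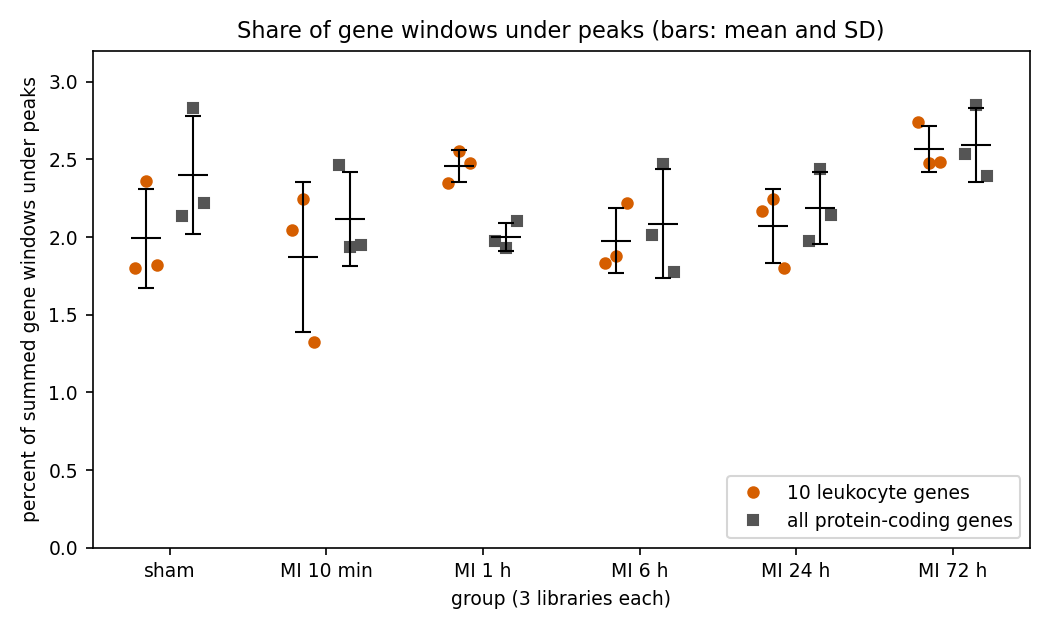
Percent of the summed gene windows under peaks in each library for the 10 leukocyte genes (circles) and for all protein-coding genes (squares), by group, with mean and SD of 3 libraries. The 10 genes lie below the protein-coding value in all 3 sham libraries and above it in all 3 libraries at 1 h.

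In lists of other leukocyte genes, means were higher late for some genes and lower for others, beside 58.3% higher and 41.7% lower over all genes tested. Of 17 phagocyte genes tested (18 listed), 13 had a higher mean late and 4 a lower one, and at an unadjusted p below 0.05 only Fcgr1, an antibody receptor, was higher. Of 16 genes shared by leukocytes, 10 were higher late and 6 lower, and Laptm5 and Cd48 were higher at an unadjusted p below 0.05. Of 9 blood transcription factors tested (14 listed), 3 were higher and 6 lower, and Irf8, which directs monocyte and dendritic cell fate, was lower at that p. Of 8 lymphocyte genes tested (9 listed), 3 were higher and 5 lower, with Ms4a1 (CD20) higher at that p. All 3 granulocyte genes tested (5 listed) had a lower late mean, none at that p. Over all genes tested, 5.13% were higher late and 1.24% lower at an unadjusted p below 0.05. After Benjamini-Hochberg adjustment over all genes, 0 of these genes passed.

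Markers of other heart cells were counted in the same way, and none passed after Benjamini-Hochberg adjustment. Of 10 cardiomyocyte genes, 9 had a higher mean late and 1 a lower one, and 4 were higher at an unadjusted p below 0.05: Tnnt2 (a troponin), Actn2, Ryr2 and Ttn (titin). The shares over all genes tested were 58.3% with a higher mean and 5.13% higher at that p. Their summed windows were under peaks by 2.13% ± 0.808 (SD, n = 3) in sham and 3.85% ± 0.767 (SD, n = 3) at 72 h. The same measure was 3.39% ± 0.916 and 3.77% ± 0.512 for the endothelial genes, and 2.56% ± 0.284 and 3.22% ± 1.27 for the fibroblast genes. Over all protein-coding genes it was 2.40% ± 0.380 and 2.59% ± 0.237. Of 7 endothelial genes 5 were higher late and 2 lower, and of 5 fibroblast genes tested (6 listed) 1 was higher and 4 lower, none at that p. The part of these cell types and of list length in the values at the 10 genes was not tested.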

How the data were processed

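DNA from 18 libraries (6 groups of 3 mice) was analysed from the deposited peak lists, which the authors made for every library on its own. A list has the position of a peak, its name and its score. The deposited score was assigned by the authors' peak caller on a scale that is not stated, with a lowest value of 50. Bowtie2, MACS2 and mm10 are named by the submitters' processing notes; their versions and options are not given in the sources used here. Read counts were not used here, so sequencing depth is unknown and no counting interval is given. The equal lists evened list length only, and whether list length follows depth was not tested.

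Gene spans, promoter windows and sequences came from RefSeq (GRCm38.p6, the assembly of mm10). All 10 members and 6 of the 10 promoter entries were found. As a check of the build, 8.93% of promoter windows touched a peak, against 11.6% to 12.5% of the same windows moved by 5000 or 20000 bases. Peaks sharing at least 1 base were joined into regions, and positions are printed counted from 1. Group labels came from the sample descriptions. Genes were tested by the exact permutation test over libraries (18564 assignments) and regions by Fisher's exact test, both two-sided with Benjamini-Hochberg adjustment over all features; the procedures were tested on simulated data. The labels give 3 mice per group but do not tie each library to 1 mouse, so p-values measure the spread between these libraries. Alternatives were equal lists, a score of at least 100, other flanks, 50% cover, other group definitions, the replicate block and leaving out each library.

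All 10 members are named. Regions described singly are those in at least 12 libraries and the 8 others with the largest late minus earlier difference, ties being settled by the number of libraries and then by position (the last of the 8 tied with others at 25 points); chr16:92645068-92647159, other weak regions of Csf1r, Itgb2, Spi1 and Ptprc, the MI against sham comparison, the counts of separate ranges and the ratios to protein-coding genes were singled out after their values were seen. The members and lists were chosen with earlier results of these data known. Python 3.11.15, numpy 2.4.6, pandas 2.3.3, scipy 1.17.1 and matplotlib 3.10.9 were used.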

Additional observations from a re-analysis of the deposited data

How the results depend on the processing

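No gene and no region passed the adjusted threshold under any alternative run. The number of members at an unadjusted p below 0.05 (1) became 0 with equal lists, with a score of at least 100, with sham alone as the earlier group and with 24 h alone as the late group, and 2 with 72 h alone; leaving out 1 library gave 1 to 2, the 2 being Csf1r and Runx1 without replicate 2 or without replicate 3 of MI 24 h (Runx1 exact permutation p = 0.0343 and 0.0301). The Csf1r difference was 1.85 points with 24 h alone (exact permutation p = 0.2), 3.30 against sham alone (exact permutation p = 0.155) and 2.27 to 3.60 with 1 library left out. Member regions at an unadjusted p below 0.05 were 2 with 72 h alone and 0 to 1 with 1 library left out: without replicate 1 of MI 72 h the Ikzf1 region at 11727052 differed by -58.3 points (Fisher's exact p = 0.0441).

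The Spi1 region was gained at 0 of the times 10 min, 1 h and 6 h with equal lists or a score of at least 100, and member regions differing between MI and sham were then 0. With 1 library left out the number gained was 1 to 2 at 10 min, 1 to 3 at 1 h, 1 to 2 at 6 h, 0 to 1 at 24 h and 0 to 2 at 72 h. The number lost was 0 to 1 at 10 min, 0 to 1 at 6 h and 0 to 2 at 24 h. Leaving out a library of sham or of that time loosens the rule, so the numbers gained and lost could rise but not fall. The share over all regions was not counted for these runs. The summed window at 72 h minus sham (0.574 points) was 0.192 with equal lists and 0.134 with a score of at least 100; at 24 h minus sham (0.07975) it was -0.239 with that score, which left 4 members with a peak, -0.0622 with equal lists, -0.0174 with no flank and -0.0163 to 0.263 with 1 library left out.

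Among single genes and regions, these differences, in percentage points, changed sign. With equal lists Itgam was at -0.350 points, Mertk 128791733 at -8.33 and Runx1 92772064 at -25. With a score of at least 100 Ikzf1 was at 0.110, Mertk 128791733 at -16.7 and Mertk 128804298 at 8.33. With sham alone Itgb2 was at 0.697, Spi1 at 1.16 and the Spi1 region at 66.7. With 72 h alone Spi1 was at 0.0531 and Mertk 128800603 at 16.7. With 24 h alone Itgb2 was at 0.162, and Mertk 128804298 and the Adgre1 region at 8.33. With 1 library left out, the Spi1 region ranged from -15.2 to 5, and the Adgre1 region and Mertk 128804298 from -16.7 to 8.33. The cause was not tested.

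Replicate numbers are shared by the groups, but libraries with the same number did not clearly deviate together. Their correlation was -0.0568 to 0.0818 (45 pairs, mean 0.00962). For libraries with different numbers it was -0.0917 to 0.0824 (90 pairs, mean -0.00480). Of 18 libraries 7 correlated best with their own number, and the number to be met by chance was not worked out. The replicate block changed no call: under it, Csf1r differed by 2.94 points (exact permutation p = 0.00978) and the Spi1 region by 86.7 points between MI and sham (exact permutation p = 0.0185). No Csf1r peak and no peak in the Spi1 region reached a score of 100.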

Other observations

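Among the other blood genes, Irf8 was lower late at an unadjusted p below 0.05. Laptm5, Fcgr1, Cd48 and Ms4a1 were higher at that p, and none of these passed after adjustment. Over all genes tested, 1.24% were lower and 5.13% higher at that p. Irf8 had a peak in 8 of 12 earlier and 1 of 6 late libraries, and the percent of its window under peaks was 3.84% ± 2.90 (SD, n = 12) earlier and 0.680% ± 1.67 (SD, n = 6) late (exact permutation p = 0.0236, Benjamini-Hochberg adjusted p = 0.639). Laptm5, a lysosomal membrane protein of leukocytes, had a peak in 3 of 12 earlier and 6 of 6 late libraries, with 1.05% ± 1.97 (SD, n = 12) earlier and 3.61% ± 0.746 (SD, n = 6) late (exact permutation p = 0.00980, adjusted p = 0.606). Mpo and Elane, enzymes of neutrophil granules, had peaks in 5 of 12 and 3 of 12 earlier libraries and in 0 of 6 late libraries (exact permutation p = 0.172 and 0.441). Cd3e (3 of 12 earlier libraries) and Cd14 (2 of 12), from the lymphocyte and phagocyte lists, also had a peak in 0 of 6 late libraries. How often genes at large show this was not counted. The genes described here were singled out after their values were seen.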
